A study of Mus musculus with 27 samples.

Results

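Sh3rf2, Stc1, Mobp and Sox21 are 4 autosomal genes of 53801 in the count table that were chosen by their large changes in mouse embryonic stem cells treated with doxycycline and with auxin, which was added to degrade the protein SPEN. They were selected on the counts of these Dox+Auxin groups, so every comparison of theirs with these groups is a description without a test. Their other comparisons are tested, but share untreated or doxycycline-only libraries with the contrasts that chose them. All 4 were among the 18363 genes that passed the filter on low counts. The cells were TX1072, a female embryonic stem cell line from an F1 cross (BL/6J x CAST-EiJ), grown in serum medium with LIF and the 2 inhibitors CHIR99021 and PD0325901. All groups carried a Spen gene tagged with a degron, which lets auxin trigger destruction of the protein. The SPOC line also carried BglG-GFP-SPOC, a fusion of the RNA-binding protein BglG, GFP and the SPOC domain of SPEN, and the GFP line carried BglG-GFP without that domain. The groups, in each line, were Dox+Auxin (12 h of auxin, then 24 h of doxycycline at 1 µg/mL with auxin), Dox (24 h of doxycycline at 1 µg/mL alone) and untreated. There were 5 libraries in each SPOC group and 4 in each GFP group, 27 in all. No group had auxin without doxycycline, so every comparison of Dox+Auxin with untreated cells changes both agents.

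SPEN is a large nuclear protein that binds RNA and, through its SPOC domain, recruits corepressors that silence genes. It is needed for silencing of the X chromosome by the long noncoding RNA Xist, which doxycycline induces in TX1072 cells, and it is also a corepressor of RBPJ, the transcription factor of the Notch pathway. The 4 genes lie outside the X chromosome and belong to unrelated families. Sh3rf2 encodes a RING and SH3 domain protein that restrains SH3RF1 (POSH), a scaffold of the JNK kinase cascade. Stc1 encodes stanniocalcin 1, a secreted glycoprotein that acts on calcium and phosphate handling and is a known target of the hypoxia-inducible factors. Mobp encodes a structural protein of central nervous system myelin, made by oligodendrocytes. Sox21 encodes a transcription factor of the SOXB2 group, which counteracts the SOXB1 factors SOX1, SOX2 and SOX3 in neural progenitors and, in the early mouse embryo, restrains Cdx2.

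The sequence before the start of Mobp and of Sox21, the pair that was higher in Dox+Auxin cells, is shown because SPEN, RBPJ and SOX factors all act at regulatory sequence. Both come from RefSeq (GRCm38.p6), are written 5′ to 3′ on the gene's own strand, and have in capitals each match to 1 of 7 short motifs on either strand. The letters searched for RBPJ were TGGGAA. Those for the hypoxia-inducible factors were ACGTG, and those for the aryl hydrocarbon receptor were GCGTG. For SOX factors there were 2 motifs, first ACAATG, then the variant ACAAAG. The CAAT box was searched as CCAAT, and the TATA box as TATAAA. The Mobp stretch is chr9:120149492-120149706 on the plus strand and the Sox21 stretch chr14:118237031-118237280 on the minus strand. For Mobp 215 of the 250 bases searched are shown, since bases inside the annotated gene were left out.
Mobp: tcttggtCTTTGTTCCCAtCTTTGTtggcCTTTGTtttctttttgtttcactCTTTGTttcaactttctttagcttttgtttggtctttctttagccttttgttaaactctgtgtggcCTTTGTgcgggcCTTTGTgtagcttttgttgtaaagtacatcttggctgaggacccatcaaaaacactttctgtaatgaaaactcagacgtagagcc
Sox21: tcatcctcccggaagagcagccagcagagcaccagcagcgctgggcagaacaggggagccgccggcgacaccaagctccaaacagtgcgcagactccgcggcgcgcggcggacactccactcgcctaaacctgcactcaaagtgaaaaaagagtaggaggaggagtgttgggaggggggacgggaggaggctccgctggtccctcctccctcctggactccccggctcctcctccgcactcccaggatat
In the 250 bases before its RefSeq start, Mobp had 6 copies of ACAAAG, all written as CTTTGT on the strand shown. At least 1 copy is found in 16.5% of the 32851 promoter windows of the same length, and 6 or more in 0.00304% of them. The second share is the Mobp window itself. Mobp also had 1 copy of the RBPJ letters, as TTCCCA, which overlaps a CTTTGT by 1 base. These letters are in 21.6% of all windows. The Sox21 window held none of the 7 motifs. A match is a run of letters and not a known site, and no binding was measured.

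Library totals ranged from 28936459 to 45489094 counts. Levels are in CPM, counts scaled to library size with TMM factors, and differences are log2 fold changes. The 10 naive pluripotency markers were all at 1 CPM or more on average in every group, with a summed level of 5501 to 6001 CPM in SPOC Dox+Auxin cells against 5697 to 6066 CPM in SPOC untreated cells, and of 5251 to 5539.7 CPM in GFP Dox+Auxin cells against 5619 to 5834 CPM in GFP untreated cells. With Dox+Auxin against untreated cells edgeR called 3 of 10 higher and 2 lower in the SPOC line, beside 16.7% and 16.6% of all genes. In the GFP line it called 1 higher and 5 lower, beside 19.9% and 18.4% of all genes. The part of these pluripotency markers in the 4 genes' values was not tested. Spen RNA averaged 1052 ± 114 CPM in SPOC Dox+Auxin cells, 353 ± 15.0 CPM in SPOC Dox cells and 343 ± 11.4 CPM in SPOC untreated cells (SD, n = 5 each), and 860.5 ± 223, 197 ± 15.4 and 174 ± 12.1 CPM in the Dox+Auxin, Dox and untreated GFP cells (SD, n = 4 each). The degron acts on the protein, so this RNA does not check the depletion, and the SPOC construct itself holds Spen sequence. SPOC untreated replicate 2 stood apart, with 178 CPM of Xist against 1.03 to 1.69 CPM in the other SPOC untreated libraries. Without it, with Dox+Auxin against untreated SPOC cells, calls changed for 2 of the 71 tested genes of the 5 gene lists described here and for 1 gene entry near Mobp, and the 4 genes' changes with Dox+Auxin are also given without it. The 2 closest libraries of one group were SPOC Dox+Auxin replicates 1 and 2, whose counts still differed by a chi-square of 1.76 per gene, and they were kept as separate samples.

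The 4 genes sit on 3 autosomes in GRCm38 (mm10). Sh3rf2 (ENSMUSG00000057719) spans bases 42053667 to 42158960 of chromosome 18 on the plus strand, and no other annotated gene overlaps it. Stc1 (ENSMUSG00000014813) spans 69029238 to 69041804 of chromosome 14 on the plus strand and overlaps the antisense gene Gm41192, which had 15 counts over all libraries. Mobp (ENSMUSG00000032517) spans 120149707 to 120181484 of chromosome 9 on the plus strand, with the same-strand transcript Gm38642 inside it at 4 counts over all libraries. Sox21 (ENSMUSG00000061517) spans 118233232 to 118237030 of chromosome 14 on the minus strand. A lincRNA on the opposite strand, Gm4675, starts 0.798 kb downstream of the Sox21 start and had 1236 counts over all libraries. Whether the counting used strand is not stated, so reads of Sox21 and of Gm4675 in the shared stretch cannot be told apart.

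**Figure D1:**
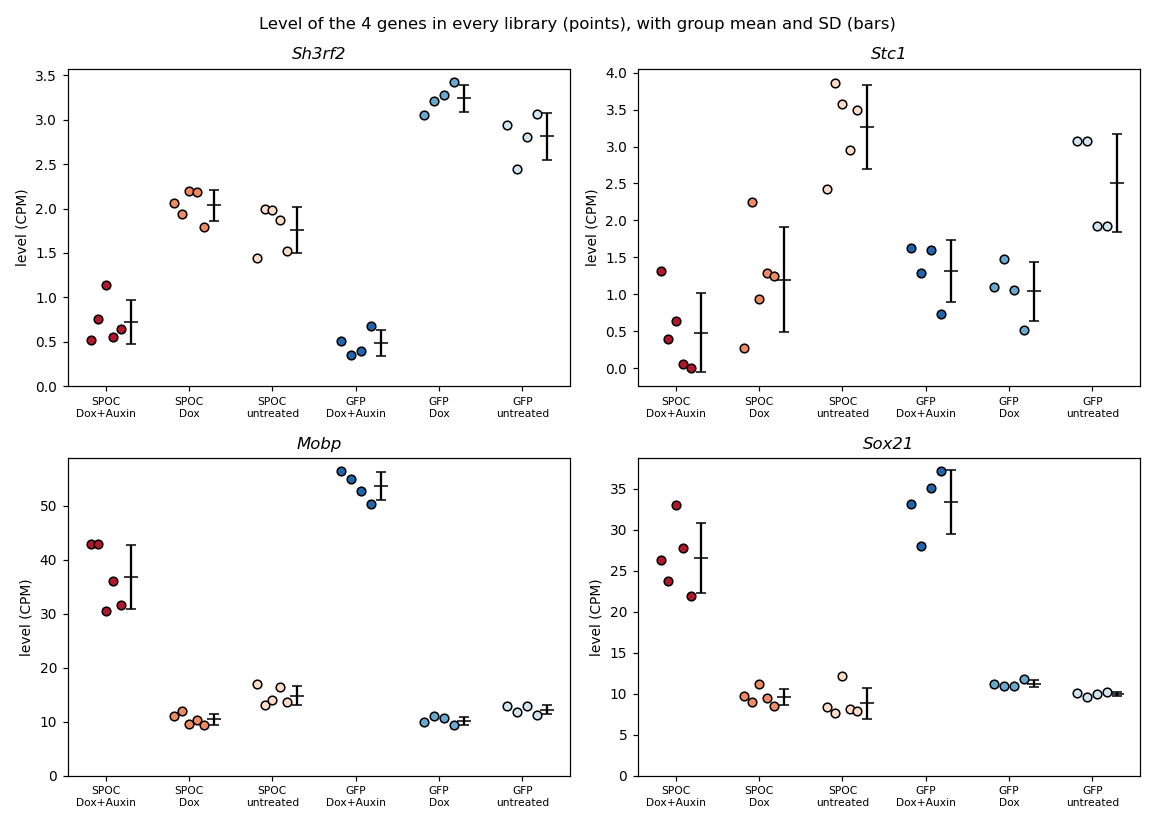
Level of each gene in CPM (linear axis) in every library, by line and treatment. Points are libraries and bars give the group mean and SD. Sh3rf2 is lowest in both Dox+Auxin groups, Mobp and Sox21 are highest there, and Stc1 is highest in untreated cells of both lines.

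Sh3rf2, the restrainer of the SH3RF1 scaffold, was low in Dox+Auxin cells of both lines. In SPOC cells it had 0.523, 0.761, 1.14, 0.556 and 0.650 CPM with Dox+Auxin, 2.06, 1.94, 2.20, 2.19 and 1.79 CPM with Dox, and 1.44, 1.99, 1.98, 1.87 and 1.52 CPM untreated. In GFP cells it had 0.510, 0.355, 0.392 and 0.682 CPM with Dox+Auxin, 3.05, 3.21, 3.28 and 3.42 CPM with Dox, and 2.94, 2.44, 2.80 and 3.06 CPM untreated. In both lines the Dox+Auxin libraries lie below every Dox and every untreated library, while the Dox and untreated libraries overlap. For all 4 genes the Dox+Auxin libraries lay wholly to one side of the untreated ones in each line, as did 9.90% of all genes on the high side and 9.17% on the low side in the SPOC line, and 18.7% and 17.1% in the GFP line, but the genes were selected on this contrast. The same held against Dox cells for all but Stc1, beside 10.1% of all genes higher and 8.51% lower in the SPOC line and 22.3% higher and 19.9% lower in the GFP line. The levels of Sh3rf2 rest on few reads, from 11 to 40 counts in a Dox+Auxin library and 45 to 135 in the others. The log2 fold change of Dox+Auxin against untreated cells was -1.27 (SE 0.169) in the SPOC line and -2.51 (SE 0.187) in the GFP line. The GFP value ranks 8 and the SPOC value 285 from the lowest of 18363 genes. Without SPOC untreated replicate 2 the SPOC value was -1.21. Against Dox cells the log2 fold change was -1.48 (SE 0.166) in the SPOC line and -2.72 (SE 0.186) in the GFP line.

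Sh3rf2 was also the 1 of the 4 genes called between the lines in cells without auxin. It averaged 1.76 ± 0.261 CPM in SPOC untreated cells (SD, n = 5) and 2.81 ± 0.267 CPM in GFP untreated cells (SD, n = 4), and the libraries did not overlap, as for 6.44% of all genes on the low side. The log2 fold change of SPOC against GFP untreated cells was -0.67 (SE 0.145), with an adjusted p of 0.0036 (edgeR quasi-likelihood test, Benjamini-Hochberg over all genes). It was -0.73 without SPOC untreated replicate 2, with an adjusted p of 0.0044 in the same edgeR test. In this comparison 1 of the 4 genes was called, beside 11.6% of all genes tested. The Dox groups gave the same picture, 2.04 ± 0.173 CPM in SPOC Dox cells (SD, n = 5) and 3.24 ± 0.153 CPM in GFP Dox cells (SD, n = 4). The log2 fold change was -0.67 (SE 0.143), with an edgeR adjusted p of 0.0022. Again 1 of the 4 genes was called, beside 10.7% of all genes, and its libraries did not overlap, beside 6.93% of all genes on the low side. Untreated or Dox libraries also served in the contrasts that chose the gene, so these tests are not fully separate from that choice. With Dox+Auxin the order of the means turned round, 0.727 ± 0.251 CPM in SPOC cells (SD, n = 5) and 0.485 ± 0.147 CPM in GFP cells (SD, n = 4), and these libraries overlap. The response to Dox+Auxin differed between the lines by a log2 value of 1.25 (SPOC minus GFP, SE 0.263), or 1.3 without SPOC untreated replicate 2. By level, the 6 groups of Sh3rf2 run from GFP Dox through GFP untreated, SPOC Dox, SPOC untreated and SPOC Dox+Auxin to GFP Dox+Auxin, and neighbours overlap except at the step between GFP untreated and SPOC Dox cells and at the step down to the Dox+Auxin groups.

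The list of SH3RF relatives and JNK pathway genes had no shared direction in Dox+Auxin against untreated cells. Of its 17 genes, all tested, 3 rose and 5 fell in SPOC cells given Dox+Auxin, compared with untreated ones, beside 33.3% of all genes called. In the GFP line 4 rose and 2 fell, beside 38.2% of all genes. The SPOC counts were also 3 and 5 without SPOC untreated replicate 2. The list's median log2 fold change was -0.09 in the SPOC line and -0.0034 in the GFP line, beside medians of -0.0096 and -0.0027 over all genes. Sh3rf1, the scaffold itself, fell in both lines, at a log2 value of -0.23 (SE 0.0459) in the SPOC line and -0.31 (SE 0.0503) in the GFP line. Jun, the transcription factor that JNK phosphorylates, fell, at -0.54 (SE 0.0799) in the SPOC line and had 0.03 (SE 0.0868, adjusted p 0.84, edgeR) in the GFP line. That difference between the lines was itself past the threshold, at -0.56 (SE 0.118) with an edgeR adjusted p of 0.0087. With Dox+Auxin against Dox cells, 7 of the 17 rose and 3 fell in the GFP line, with a median of 0.10. In the SPOC line 2 rose and 3 fell, with a median of 0.0025. Over all genes 24.7% rose and 22.9% fell in the GFP line, and 16.6% and 15.4% in the SPOC line.

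Stc1, the secreted stanniocalcin, was highest in untreated cells and varied most between libraries of one group. In SPOC cells it had 1.31, 0.395, 0.630, 0.0585 and 0 CPM with Dox+Auxin, 0.274, 2.25, 0.928, 1.29 and 1.25 CPM with Dox, and 2.43, 3.86, 3.58, 2.95 and 3.49 CPM untreated. In GFP cells it had 1.63, 1.29, 1.60 and 0.738 CPM with Dox+Auxin, 1.10, 1.48, 1.06 and 0.511 CPM with Dox, and 3.07, 3.08, 1.93 and 1.93 CPM untreated. Every treated library lies below every untreated library of its line, and the Dox+Auxin and Dox libraries overlap in both lines. The SPOC Dox+Auxin libraries held 45, 14, 22, 2 and 0 reads of Stc1, and 3 reads in the library at 0 would have been 0.0929 CPM. The pooled SD of log2 CPM within groups was 0.95 for Stc1, beside 0.26 for Sh3rf2, 0.15 for Mobp and 0.17 for Sox21. The closest pair of SPOC Dox+Auxin libraries, replicates 1 and 2, held 45 and 14 reads of it.

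The fall of Stc1 was present with doxycycline alone. In the SPOC line the log2 fold change of Dox against untreated cells was -1.42 (SE 0.417), a 2.67-fold lower level, with an edgeR adjusted p of 0.025. It was -1.34 without SPOC untreated replicate 2, with an edgeR adjusted p of 0.047. The call was lost with DESeq2 (-1.44, adjusted p 0.059) and without the filter on low counts (-1.41, edgeR adjusted p 0.053). It was also lost without SPOC Dox replicate 1 (-1.18, edgeR adjusted p 0.058) or without SPOC Dox replicate 3 (-1.33, edgeR adjusted p 0.062). In the GFP line the value was -1.24 (SE 0.469), with an edgeR adjusted p of 0.064. The difference between the lines was -0.17 (SPOC minus GFP, SE 0.638), with an edgeR adjusted p of 0.99, which leaves a wide interval. The same untreated libraries served in the contrast that chose the gene, so this test is not fully separate from that choice.

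With Dox+Auxin against untreated cells, the log2 fold change of Stc1 was -2.75 (SE 0.481) in the SPOC line. In the GFP line it was -0.92 (SE 0.455). From the lowest of 18363 genes, the SPOC value ranks 9 and the GFP value 599. Without SPOC untreated replicate 2 the SPOC value was -2.67. Against Dox cells it was -1.33 (SE 0.543) in the SPOC line and 0.32 (SE 0.515) in the GFP line, where the means were 1.31 ± 0.413 CPM with Dox+Auxin and 1.03 ± 0.397 CPM with Dox (SD, n = 4 each). So in GFP cells the means with Dox+Auxin and with doxycycline alone differed by less than their spread. With SPOC Dox+Auxin replicates 4 and 5 left out, a choice made after seeing their values, the SPOC value was -2.07 (SE 0.418) against untreated cells and -0.66 (SE 0.461) against Dox cells. The response to Dox+Auxin differed between the lines by -1.82 (SPOC minus GFP, SE 0.684), or -1.75 without SPOC untreated replicate 2. Single libraries move these values of Stc1. Without SPOC Dox+Auxin replicate 1 they were -3.54 against untreated cells, -2.13 against Dox cells and -2.62 for the difference between the lines. Without SPOC Dox+Auxin replicate 5 they were -2.44, -1.03 and -1.52 in the same comparisons, and without SPOC Dox replicate 2 the value against Dox cells was -0.96.

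**Figure D2:**
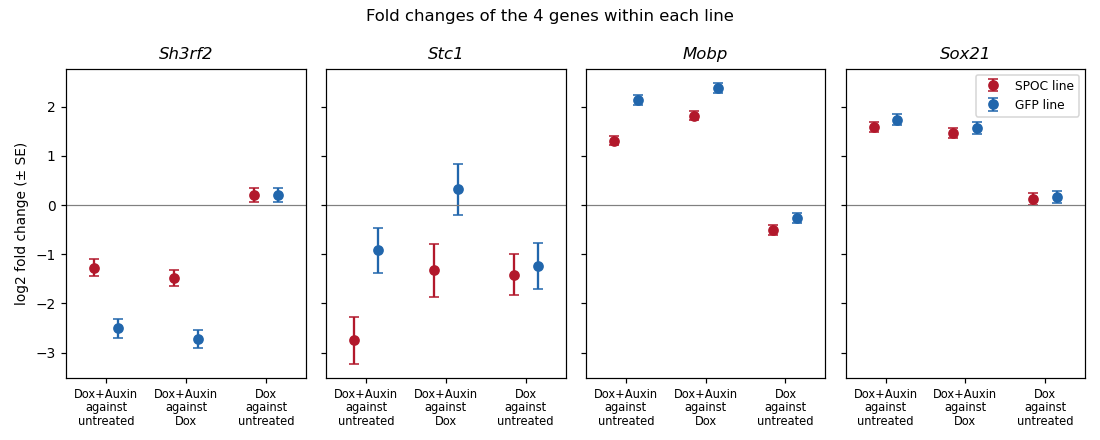
Log2 fold change of each gene in 3 comparisons within each line (linear axis of log2 values), red for the SPOC line and blue for the GFP line, with bars of 1 SE from the edgeR fit. Mobp and Sox21 are above 0 in the comparisons of Dox+Auxin cells and Sh3rf2 is below. Stc1 is below 0 there except against Dox cells of the GFP line. In the comparison of Dox with untreated cells Stc1 and Mobp are below 0 in both lines.

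Genes of the list of the paralogue Stc2, phosphate carriers and hypoxia-induced genes fell in SPOC cells given Dox+Auxin, compared with untreated ones. Of 19 listed genes 17 were tested, and in this comparison 16 fell and 1 rose, beside 16.6% of all genes called lower. The list's median log2 fold change was -0.60, beside -0.0096 over all genes. The list was made mostly of genes that low oxygen induces, so those that fell are mostly such genes by its make-up. Ndrg1, a stress-response gene, fell, at -1.95 (SE 0.300), Adm, which encodes the vasodilator peptide adrenomedullin, at -2.41 (SE 0.531), Bnip3, a mitophagy receptor, at -1.26 (SE 0.334), and Egln3, an oxygen sensor, at -1.25 (SE 0.242). Stc2 fell, at -1.16 (SE 0.215) and the lactate dehydrogenase gene Ldha at -0.71 (SE 0.148). The gene that rose was the phosphate carrier Slc20a2, at 0.15 (SE 0.0368). The count lower was 16 without SPOC untreated replicate 2, and 14 with SPOC Dox+Auxin replicates 4 and 5 left out, when the median was -0.40. Against Dox cells 6 of the 17 fell and 1 rose in the SPOC line, with a median of -0.27, beside 15.4% of all genes lower and 16.6% higher. With SPOC Dox+Auxin replicates 4 and 5 left out, 3 fell, 2 rose and the median was 0.0080. Against Dox cells of the GFP line 1 fell and 4 rose, with a median of 0.22, beside 22.9% of all genes lower and 24.7% higher.

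In the GFP line 4 of the 17 fell (2 to 5 with single libraries left out) and 1 rose with Dox+Auxin against untreated cells, beside 18.4% of all genes called lower, and the median was -0.17. With the replicate number as a block 7 fell. Those that fell without the block were Vegfa (-0.46, SE 0.153), Bnip3l (-0.17, SE 0.0598), Hk2 (-0.26, SE 0.0695) and Slc20a1 (-0.26, SE 0.0325). With Dox alone, 5 of the 17 fell in each line and none rose, with medians of -0.44 in the SPOC line and -0.33 in the GFP line. With DESeq2 9 fell in the SPOC line and 6 in the GFP line, and leaving out single libraries gave 5 to 8 and 2 to 6 by edgeR. The edgeR counts stand beside 7.33% of all genes called lower in the SPOC line and 10.8% in the GFP line. Egln3, the glycolytic regulator Pfkfb3 and the glucose transporter Slc2a1 fell with Dox in both lines, Slc2a1 at -0.52 (SE 0.106) in the SPOC line and -0.49 (SE 0.118) in the GFP line. Between Dox+Auxin cells of the lines, 14 of the 17 were lower in the SPOC line and 1 was higher, beside 13.5% of all genes lower, and 12 were lower with SPOC Dox+Auxin replicates 4 and 5 left out. In the test of the difference between the lines in the Dox+Auxin response itself, edgeR called none of the 17, beside 2.40% of all genes, with 11 at an unadjusted p under 0.05, and DESeq2 called 2, both with the lower response in the SPOC line.

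The level of the list, taken as the mean over its 17 tested genes of log2 CPM centred on each gene's mean, is given beside Stc1 for each library. In SPOC Dox+Auxin cells it was -0.12, -0.31, -0.31, -1.17 and -1.08 in replicates 1 to 5, where Stc1 had 1.31, 0.395, 0.630, 0.0585 and 0 CPM. In SPOC Dox cells the list was lowest in replicate 1, at -0.41, where Stc1 was also lowest, at 0.274 CPM, and highest in replicate 2, at 0.07, where Stc1 was highest, at 2.25 CPM. In GFP Dox and GFP Dox+Auxin cells replicate 4 was lowest for both. The order was not shared in SPOC untreated cells. There the list was lowest in replicate 4, at 0.17, and Stc1 in replicate 1, at 2.43 CPM. The list was highest there in replicate 3, at 0.35, and Stc1 in replicate 2, at 3.86 CPM. In GFP untreated cells the list was lowest in replicate 4, at 0.22, where Stc1 had 1.93 CPM, as in replicate 3. Ndrg1 had 35.3, 24.1, 24.5, 10.7 and 9.20 CPM in the SPOC Dox+Auxin libraries and 67.1, 92.8, 83.6, 73.3 and 84.8 CPM in the SPOC untreated libraries. Library totals in the SPOC Dox+Auxin group ran from 32328313 to 35230077 counts. Oxygen, cell density and harvest conditions were not recorded in the labels, and their part in these levels was not tested.

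**Figure D3:**
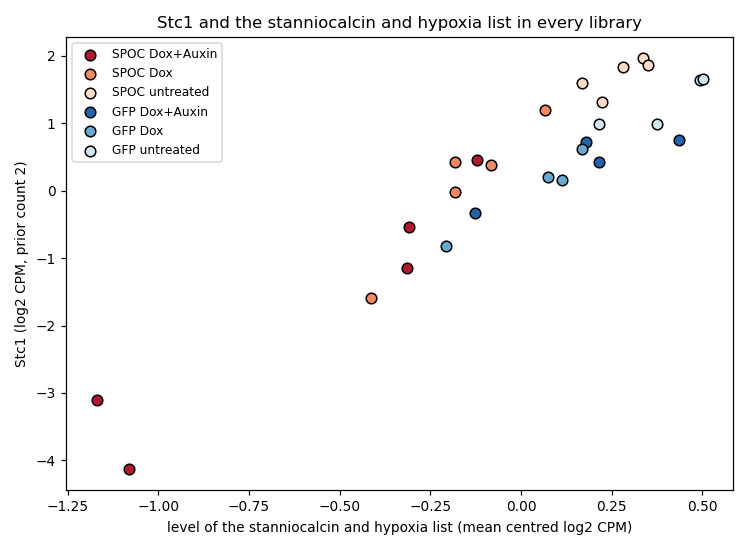
Stc1 (log2 CPM with a prior count of 2, vertical axis) against the level of the 17-gene stanniocalcin and hypoxia list (mean centred log2 CPM, horizontal axis), 1 point per library, coloured by group. The 2 libraries at the lower left are SPOC Dox+Auxin replicates 4 and 5, at list levels of -1.17 and -1.08.

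Mobp, the myelin protein gene, was several-fold higher in Dox+Auxin cells of both lines. In SPOC cells it had 43.0, 42.9, 30.5, 36.1 and 31.7 CPM with Dox+Auxin, 11.1, 11.9, 9.51, 10.3 and 9.33 CPM with Dox, and 16.9, 13.1, 14.1, 16.4 and 13.6 CPM untreated. In GFP cells it had 56.5, 55.0, 52.8 and 50.4 CPM with Dox+Auxin, 9.92, 11.0, 10.6 and 9.33 CPM with Dox, and 12.9, 11.8, 13.0 and 11.2 CPM untreated. In each line the Dox+Auxin libraries lie above all others, the Dox libraries lie below all untreated ones, and no groups overlap. With Dox+Auxin every SPOC library lies below every GFP library, as for 9.76% of all genes. The log2 fold change of Dox+Auxin against untreated cells was 1.31 (SE 0.0896), or 2.49-fold, in the SPOC line (1.28 without SPOC untreated replicate 2) and 2.14 (SE 0.0994), or 4.39-fold, in the GFP line. Against Dox cells it was 1.82 (SE 0.0926) in the SPOC line and 2.39 (SE 0.103) in the GFP line. These values rank 11 and 29 from the highest of 18363 genes. The response to Dox+Auxin against untreated cells was smaller in the SPOC line, by -0.82 (SPOC minus GFP, SE 0.133), or -0.86 without SPOC untreated replicate 2.

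With Dox alone the change of Mobp went the other way. It averaged 10.4 ± 1.08 CPM in SPOC Dox cells and 14.8 ± 1.73 CPM in SPOC untreated cells (SD, n = 5 each), a log2 fold change of -0.51 (SE 0.0973) with an edgeR adjusted p of 5.7e-04. Without SPOC untreated replicate 2 it was -0.55, with an edgeR adjusted p of 3.3e-04. Untreated or Dox libraries also served in the contrasts that chose Mobp, so its tests are not fully separate from that choice. Mobp and Stc1 were thus 2 of the 4 genes called in this comparison, beside 13.5% of all genes. Their Dox libraries lay below all untreated ones, as did those of 918 of all 18363 genes. In the GFP line Mobp averaged 10.2 ± 0.720 CPM with Dox and 12.2 ± 0.874 CPM untreated (SD, n = 4 each), a log2 fold change of -0.26 (SE 0.107) with an edgeR adjusted p of 0.090. None of the 4 genes was called there by edgeR, beside 20.9% of all genes, nor by DESeq2, and Stc1 and Mobp had an unadjusted p under 0.05. Nonetheless the Dox libraries of Stc1 and Mobp lay below and those of Sox21 above all untreated libraries, as did 13.5% and 13.4% of all genes. With only the GFP Dox and untreated libraries in the fit, Mobp, Stc1 and Sox21 passed, with edgeR adjusted p of 0.011, 0.0035 and 0.044. The difference between the lines in the Dox response of Mobp was -0.25 (SPOC minus GFP, SE 0.145, edgeR adjusted p 0.73), and none of the 4 genes was called in that test, beside 0.240% of all genes, none having an unadjusted p under 0.05 either and none being called by DESeq2, which gave Mobp and Sox21 a value. For SPOC against GFP cells Mobp had 0.28 (SE 0.0994, edgeR adjusted p 0.069) in untreated cells, where its libraries did not overlap, beside 6.48% of all genes on the high side, and 0.03 (SE 0.105, edgeR adjusted p 0.89) in Dox cells. The untreated value was 0.32 without SPOC untreated replicate 2, with an edgeR adjusted p of 0.051.

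The other myelin and oligodendrocyte genes did not move as a group. Of 19 listed, 11 passed the filter, and with Dox+Auxin against untreated cells 1 rose and 2 fell in the SPOC line, beside 16.7% of all genes higher and 16.6% lower. The gene that rose there, Mal, was no longer called without SPOC untreated replicate 2. In the GFP line 3 rose and 3 fell, beside 19.9% and 18.4% of all genes. There Mbp, which encodes myelin basic protein, rose by 0.61 (SE 0.151), and Myrf, the transcription factor of myelin genes, by 0.56 (SE 0.155). The oligodendrocyte lineage factors Olig1 and Olig2 fell in both lines, Olig2 at -0.40 (SE 0.0657) in the SPOC line and -1.06 (SE 0.0767) in the GFP line. The fall of Olig2 differed between the lines by 0.66 (SPOC minus GFP, SE 0.101, edgeR adjusted p 6.0e-04). Of the 8 oligodendrocyte markers, 4 were at 1 CPM or more in each group, with a summed level of 71.2 to 88.7 CPM in SPOC Dox+Auxin cells against 71.0 to 83.8 CPM in SPOC untreated cells, and of 84.0 to 97.5 CPM in GFP Dox+Auxin cells against 76.6 to 83.2 CPM in GFP untreated cells. Mog, Mag and Cldn11, which mark mature oligodendrocytes, averaged 0.134, 0.117 and 0.0295 CPM in SPOC Dox+Auxin cells. In GFP Dox+Auxin cells they averaged 0.126, 0.105 and 0.0292 CPM.

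Sox21 was about 3 times as high in Dox+Auxin cells of both lines. In SPOC cells it had 26.3, 23.7, 33.0, 27.8 and 21.9 CPM with Dox+Auxin, 9.70, 8.96, 11.2, 9.51 and 8.54 CPM with Dox, and 8.34, 7.63, 12.2, 8.12 and 7.92 CPM untreated. In GFP cells it had 33.1, 28.0, 35.1 and 37.1 CPM with Dox+Auxin, 11.2, 10.9, 10.9 and 11.8 CPM with Dox, and 10.1, 9.64, 10.0 and 10.2 CPM untreated. The Dox+Auxin libraries lie above all others in each line. The Dox and untreated libraries overlap in the SPOC line, through replicate 3 of the untreated group, and do not in the GFP line. The log2 fold change of Dox+Auxin against untreated cells was 1.59 (SE 0.110), or 3.01-fold, in the SPOC line and 1.74 (SE 0.118), or 3.34-fold, in the GFP line. The SPOC value ranks 14 and the GFP value 41 from the highest of 18363 genes. Without SPOC untreated replicate 2 the SPOC value was 1.54. Against Dox cells the values were 1.47 (SE 0.109) in the SPOC line and 1.57 (SE 0.118) in the GFP line. The response differed between the lines by -0.15 (SPOC minus GFP, SE 0.161), or -0.20 without SPOC untreated replicate 2.

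In the fit over all 27 libraries Sox21 was called in no comparison that leaves out the Dox+Auxin groups. The log2 fold change of Dox against untreated cells was 0.12 (SE 0.118, edgeR adjusted p 0.59) in the SPOC line (0.07 without SPOC untreated replicate 2) and 0.17 (SE 0.124, edgeR adjusted p 0.39) in the GFP line. The GFP value passed with only the compared groups in the fit (edgeR adjusted p 0.044) and with the replicate number as a block (edgeR adjusted p 0.047). For SPOC against GFP cells it was -0.18 (SE 0.121, edgeR adjusted p 0.37) untreated and -0.23 (SE 0.121, edgeR adjusted p 0.25) with Dox. The untreated value was -0.13 without SPOC untreated replicate 2. Without SPOC untreated replicate 3, the library at 12.2 CPM, the untreated value was -0.32 with an edgeR adjusted p of 0.042. For Sh3rf2 the Dox response was 0.21 (SE 0.147, edgeR adjusted p 0.40) in the SPOC line (0.26 without SPOC untreated replicate 2) and 0.21 (SE 0.142, edgeR adjusted p 0.34) in the GFP line.

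Gm4675, the lincRNA on the strand opposite Sox21, rose in both lines. In the stretch they share its reads cannot be told apart from those of Sox21, a gene selected on the Dox+Auxin groups. The adjusted p of Gm4675 for Dox+Auxin is therefore not separate from that selection. Its log2 fold change of Dox+Auxin against untreated cells was 1.22 (SE 0.139, edgeR adjusted p 5.4e-08) in the SPOC line (1.19 without SPOC untreated replicate 2) and 1.23 (SE 0.144, edgeR adjusted p 5.2e-08) in the GFP line, at a mean of 1.31 CPM over all libraries. With Dox against untreated cells it was 0.34 (SE 0.152, edgeR adjusted p 0.18) in the SPOC line and 0.38 (SE 0.155, edgeR adjusted p 0.081) in the GFP line.

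The SOXB and neural progenitor list was divided in the comparison of Dox+Auxin with untreated cells. Of 18 listed genes 13 were tested, and with Dox+Auxin against untreated cells 5 rose and 6 fell in the SPOC line, with or without SPOC untreated replicate 2, beside 16.7% of all genes higher and 16.6% lower. In the GFP line 4 rose and 4 fell, beside 19.9% and 18.4% of all genes. The median log2 fold change was 0.04 in the SPOC line and 0.08 in the GFP line. The neural transcription factor gene Pax6 rose by 1.29 (SE 0.224) in the SPOC line and 2.17 (SE 0.276) in the GFP line, and the intermediate filament gene Nes by 0.85 (SE 0.0556) and 1.13 (SE 0.0620) in those lines. Sox2, the SOXB1 factor of pluripotent cells, rose by 0.16 (SE 0.0326) in the SPOC line and 0.20 (SE 0.0365) in the GFP line. Sox1 fell, at -0.60 (SE 0.137) in the SPOC line and -1.07 (SE 0.151) in the GFP line, and Sox4 and Sox11 fell in both as well. Sox3, which lies on the X chromosome, fell, at -0.57 (SE 0.0844) in the SPOC line and had 0.11 (SE 0.0921, edgeR adjusted p 0.38) in the GFP line. With Dox alone Sox3 fell in both, at -1.0 (SE 0.0869) in the SPOC line and -1.32 (SE 0.100) in the GFP line. With Dox+Auxin against Dox cells, 6 of the 13 rose and 3 fell in each line. The medians there were 0.17 in the SPOC line and 0.31 in the GFP line. Over all genes 16.6% rose and 15.4% fell in the SPOC line, and 24.7% and 22.9% in the GFP line.

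Markers of other cell types differed unevenly beside Sox21 and Mobp. The summed level of the 9 trophoblast markers was 113 to 182 CPM in SPOC Dox+Auxin cells against 109 to 148 CPM in SPOC untreated cells, and 174 to 181 CPM in GFP Dox+Auxin cells against 97.7 to 105 CPM in GFP untreated cells, with 6 of 9 at 1 CPM or more in each. The sum follows Tfap2c, at 106 CPM in SPOC Dox+Auxin cells against 69.9 CPM in SPOC untreated cells. In GFP cells Tfap2c had 129 CPM with Dox+Auxin against 61.2 CPM untreated. Krt8, Krt18 and Gata3 had lower means in Dox+Auxin than in untreated cells of both lines. With Dox+Auxin against untreated cells, edgeR called 1 of the 8 tested higher and 1 lower in the SPOC line, with a median of -0.33. In the GFP line it called 2 higher and 1 lower, with a median of -0.027. Over all genes 16.7% were called higher and 16.6% lower in the SPOC line, and 19.9% and 18.4% in the GFP line. Cdx2, which SOX21 restrains in the embryo, averaged 18.2 CPM in SPOC Dox+Auxin cells against 16.0 CPM in SPOC untreated cells, and 22.3 CPM in GFP Dox+Auxin cells against 13.0 CPM in GFP untreated cells. The 8 neural markers summed to 215 to 285 CPM in SPOC Dox+Auxin cells against 161 to 211 CPM in SPOC untreated cells, and to 240.1 to 255 CPM in GFP Dox+Auxin cells against 158 to 175 CPM in GFP untreated cells. The sum follows Nes, at 121 CPM in SPOC Dox+Auxin cells against 67.6 CPM in SPOC untreated cells and 127 CPM in GFP Dox+Auxin cells against 58.0 CPM in GFP untreated cells, and the neuronal tubulin gene Tubb3, at 118 against 96.5 CPM and 100.5 against 83.7 CPM in those groups. Of the 6 neural markers tested, edgeR called 3 higher and 3 lower in the SPOC line, with a median of -0.15. In the GFP line it called 2 higher and 2 lower, with a median of -0.11. The shares over all genes are those given for the trophoblast markers. Sox1, Map2 and Pou3f2 had lower means in Dox+Auxin than in untreated cells of both lines. In Dox+Auxin cells 5 of these 8 were at 1 CPM or more and in untreated cells 4 were, and Fabp7 was at 0 in 21 of the 27 libraries. The 8 primitive endoderm markers summed to 299 to 380.5 CPM in SPOC Dox+Auxin cells against 240.4 to 275 CPM in SPOC untreated cells, and to 298 to 390.4 CPM in GFP Dox+Auxin cells against 239.9 to 272 CPM in GFP untreated cells. Lama1 and Col4a1, which encode basement membrane proteins, make up most of this sum, at 168 and 156 CPM in SPOC Dox+Auxin cells and 165 and 170.0 CPM in GFP Dox+Auxin cells. The other 6, with the defining factors Gata4, Gata6 and Sox17, had lower means in SPOC Dox+Auxin than in SPOC untreated cells. In GFP cells Gata4, Gata6 and Sox7 had higher means with Dox+Auxin than untreated, and Sox17, Pdgfra and Dab2 had lower ones. Of the 8 endoderm markers, edgeR called 2 higher and 1 lower in the SPOC line, with a median of -0.10. In the GFP line it called 2 higher and none lower, with a median of 0.18. The shares over all genes are again those given for the trophoblast markers. In bulk samples a change in the share of a cell type and a change of RNA per cell cannot be told apart, and the part of these markers in the 4 genes' values was not tested.

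The list of RBPJ and Notch pathway genes is given because SPEN is a corepressor of RBPJ. Of 15 listed genes 14 were tested, and with Dox+Auxin against untreated cells 6 rose and 1 fell in each line, beside 16.7% of all genes higher in the SPOC line and 19.9% in the GFP line. The SPOC counts were 7 and 1 without SPOC untreated replicate 2. The median log2 fold change was 0.19 in the SPOC line and 0.46 in the GFP line. Nrarp, a feedback inhibitor of Notch and a direct target of it, rose by 0.79 (SE 0.0742) in the SPOC line and 1.07 (SE 0.0774) in the GFP line. Jag1, which encodes a ligand, rose by 0.53 (SE 0.0335) in the SPOC line and 0.79 (SE 0.0369) in the GFP line, and the target Hey1 by 0.53 (SE 0.122) and 0.82 (SE 0.132) in those lines. The receptor genes Notch1 and Notch3 rose in both. Rbpj itself fell, at -0.32 (SE 0.0439) in the GFP line and had -0.09 (SE 0.0393, edgeR adjusted p 0.075) in the SPOC line, a difference of 0.23 (SPOC minus GFP, SE 0.0589, edgeR adjusted p 0.037). The gene that fell in the SPOC line was the ligand gene Dll1, at -1.09 (SE 0.270).

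Genes near the 4 gave mixed calls. Within 500 kb of the start of Sh3rf2 lie 11 annotated genes, of which 6 were tested. With Dox+Auxin against untreated cells 3 fell and none rose in the SPOC line, and 3 fell and 1 rose in the GFP line, beside 33.3% and 38.2% of all genes called in these lines. The nearest was Prelid2, 102 kb upstream, which fell, at -0.92 (SE 0.221) in the SPOC line and had -0.41 (SE 0.235, edgeR adjusted p 0.19) in the GFP line. Pou4f3, 341 kb downstream, which encodes a hair cell transcription factor, rose by 1.16 (SE 0.310) in the GFP line. Its mean level over all libraries was low, at 0.199 CPM. Among the others that were called, Lars, Rbm27 and the pseudogene Rps19-ps4 were within 0.31 of 0 in either direction. Near Stc1 3 of 27 annotated genes were tested. None of the 3 was called with Dox+Auxin against untreated cells in either line by edgeR, nor had an unadjusted p under 0.05. In a window of 1000 kb, 11 genes near Stc1 were tested and 54.5% were called in the SPOC line, beside 33.3% of all genes, and 36.4% in the GFP line, beside 38.2% of all genes.

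Near Mobp 17 of 36 annotated genes were tested, and with Dox+Auxin against untreated cells 3 rose and 5 fell in the SPOC line and 3 rose and 2 fell in the GFP line, beside 33.3% and 38.2% of all genes called. Myrip, 152 kb downstream, which encodes a linker of myosin to Rab proteins, rose by 0.58 (SE 0.192) in the SPOC line and 0.65 (SE 0.201) in the GFP line. Eif1b and Gorasp1 rose in both lines by less. The gene entry closest downstream, a lincRNA that shares the name Gm38642, lies 43.4 kb away and fell, at -1.32 (SE 0.485) in the SPOC line, with -1.15 (SE 0.504, edgeR adjusted p 0.071) in the GFP line. Its mean level over all libraries was low, at 0.205 CPM. Without SPOC untreated replicate 2 the SPOC value was -1.16 and no longer called (edgeR adjusted p 0.094), which left 4 that fell near Mobp. Rpsa, 22.0 kb upstream, which encodes a ribosomal protein, had -0.09 (SE 0.0321) in the SPOC line and 0.06 (SE 0.0359, edgeR adjusted p 0.20) in the GFP line. Near Sox21 8 of 20 were tested, of which 2 rose in the SPOC line and 4 in the GFP line. None fell in either, and the shares of all genes are the same. Gm4675, whose reads cannot be told apart from those of Sox21 where they overlap, is among those that rose in each line. Besides Gm4675 only Abcc4, which encodes a transporter and starts 469 kb upstream, rose in both lines, by 0.22 (SE 0.0469) in the SPOC line and 0.24 (SE 0.0520) in the GFP line.

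**Figure D4:**
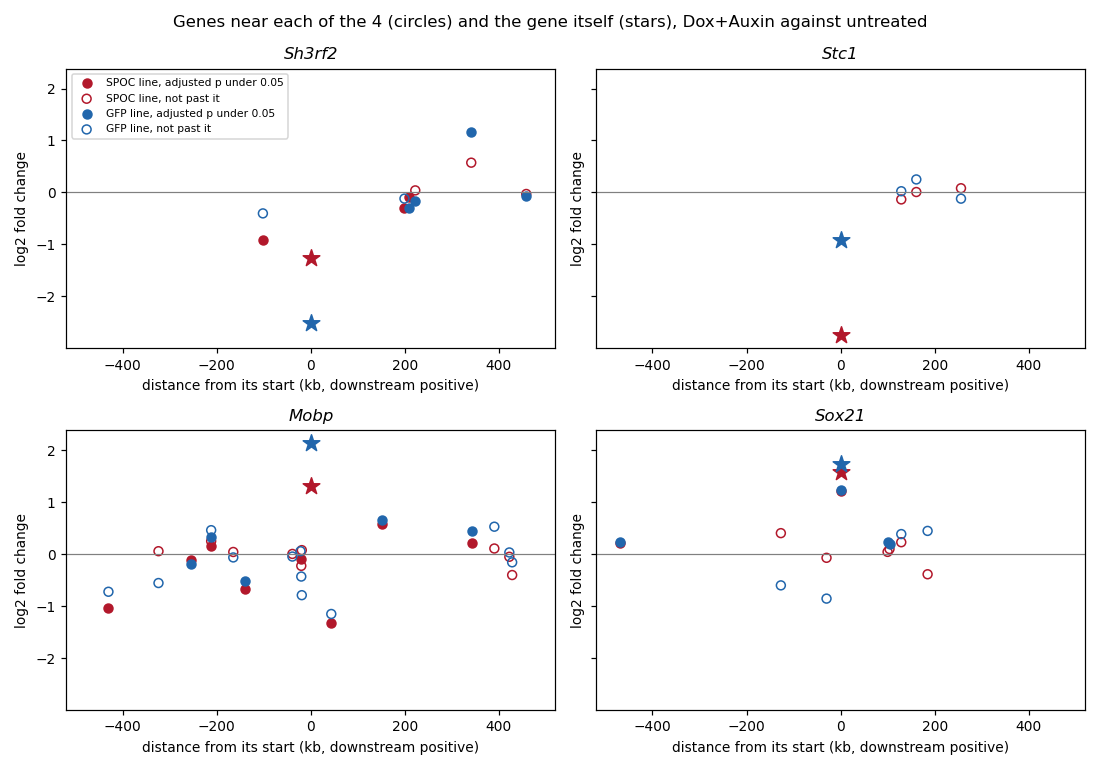
Log2 fold change of Dox+Auxin against untreated cells (vertical axis) of genes within 500 kb of each of the 4, by distance from its start (kb, horizontal axis, downstream positive). Stars are the 4 genes, filled circles are neighbours past the edgeR threshold and open circles are the others, red for the SPOC line and blue for the GFP line. Gm4675 beside Sox21 lies at 1.22 in the SPOC line and 1.23 in the GFP line, and Gm38642 beside Mobp at -1.32 and -1.15. The mean level of this Gm38642 entry was 0.205 CPM over all libraries.

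The genes with the most similar profile over the 6 groups were found from group means of log2 CPM, centred on each gene's mean. The measure was the root mean square difference. The search covered 12351 genes whose mean level reached 1 CPM. Predicted genes (Gm names), Rik names, pseudogenes and unnamed entries were left out of it. For Sh3rf2 the nearest were Meox1 (difference 0.230) and Emp1 (0.235), followed by Slc13a5, Plcb1 and Inhbb. For Stc1 they were Loxl2 (0.286), a lysyl oxidase, Aire (0.358), Eno2 (0.407), Ndufa4l2 (0.412) and Kbtbd11 (0.421), and Eno2 and Ndufa4l2 are known to be induced by low oxygen. For Mobp they were Greb1l (0.243), Sez6l (0.277), Fgfr2 (0.286), Lrrc15 (0.292) and Slc6a17 (0.295). For Sox21 they were Cidea (0.152), Lrrc15 (0.188), Sez6l (0.208), Crabp2 (0.211) and Pga5 (0.213). Lrrc15 and Sez6l are on the lists of both Mobp and Sox21. These lists used log2 CPM with a prior count of 2. With a prior count of 0.5, Wnt3 took the place of Lrrc15 for Mobp, and Adm that of Eno2 for Stc1. The lists of Sh3rf2 and Sox21 kept all 5 genes. The ordering is a description over 6 group means that share the same libraries.

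**Figure D5:**
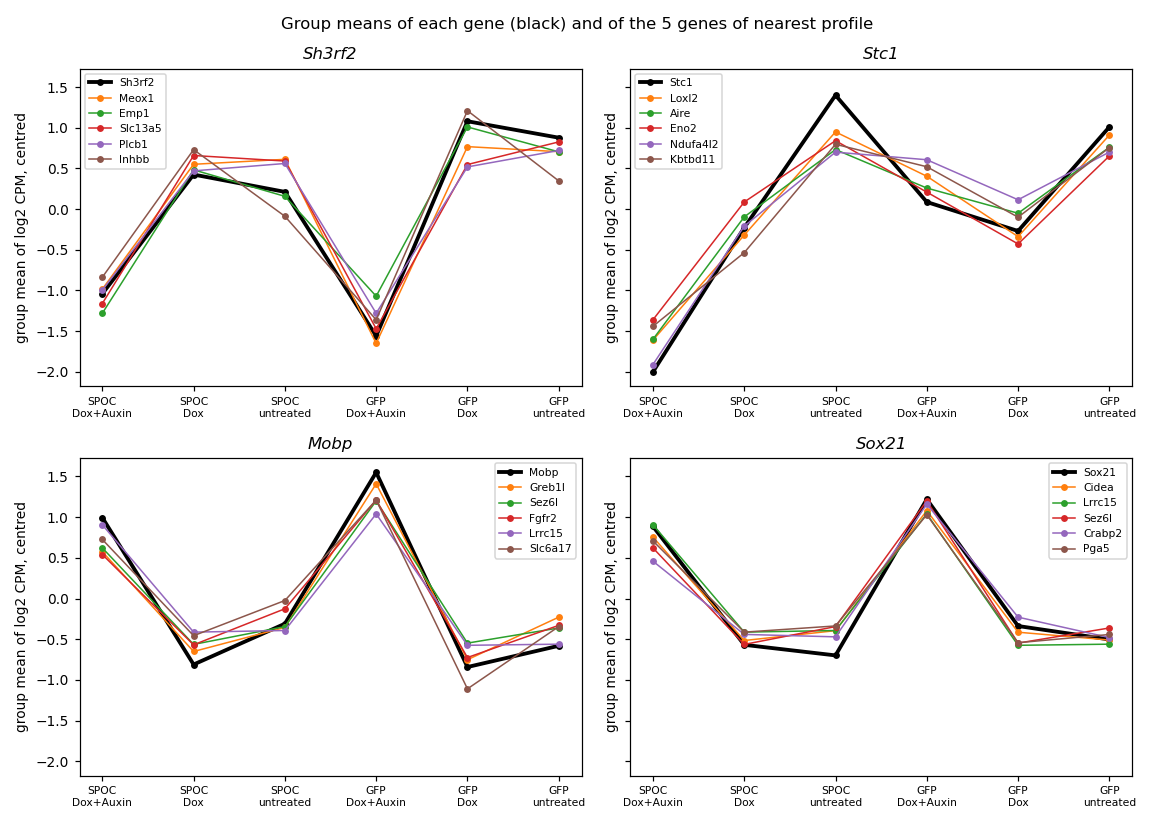
Group means of log2 CPM, centred on each gene's mean over the 6 groups (vertical axis), by line and treatment. The black line is the named gene and the coloured lines are the 5 genes of nearest profile, from a root mean square difference of 0.152 (Cidea for Sox21) to 0.421 (Kbtbd11 for Stc1).

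Compared per gene length, on the authors' values of counts divided by gene length and a library factor, Sox21 and Mobp stood highest. In SPOC Dox+Auxin cells Sox21 averaged 242 ± 38.5, Mobp 186 ± 30.4, Sh3rf2 4.74 ± 1.63 and Stc1 3.95 ± 4.38 on this scale (SD, n = 5). In SPOC untreated cells Sox21 averaged 80.4 ± 17.2, Mobp 74.6 ± 8.73, Stc1 26.8 ± 4.69 and Sh3rf2 11.4 ± 1.71 (SD, n = 5). In GFP Dox+Auxin cells Sox21 was at 304 ± 36.3 and Mobp at 271 ± 12.9 (SD, n = 4). The order of Sox21 and Mobp in SPOC untreated cells lies within their spread.

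The reads assigned to the BL6 or CAST allele gave Sh3rf2 a high share of BL6 reads. The allelic columns could not be tied to libraries, since none of the 27 correlated best with the column of totals of the same name, so they are pooled over all libraries and say nothing of treatment. Sh3rf2 had 919 BL6 reads and 189 CAST reads, a BL6 share of 82.9% (Wilson 95% interval 80.6 to 85.0, counting error only). BL6 reads were the more frequent in 27 of 27 columns, and 96.7% of 12443 autosomal genes with at least 500 allelic reads had a lower share. The shares of those genes had a median of 50.4%, a 5th percentile of 25.4% and a 95th percentile of 75.3%. Mobp had a share of 58.1% (Wilson 57.3 to 58.8), with more BL6 reads in 27 of 27 columns, and 81.9% of autosomal genes were lower. Stc1, with 615 allelic reads, had 54.3% (Wilson 50.4 to 58.2), and Sox21 had 51.4% (Wilson 49.9 to 53.0). Preference of the alignment for one genome was not tested.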

How the data were processed

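RNA-seq counts per gene of 27 libraries of mouse embryonic stem cells were analysed. Per the submitters' processing notes, reads were handled with Trim Galore 0.4.4, STAR 2.5.3a, Picard 2.18.2 and featureCounts on mm10. They do not give the strand setting. The total counts deposited by the authors are raw. A second deposited set of values, named RPKM in the file headers, is a signal of counts divided by gene length and a library factor that does not sum as a true RPKM; it served only to compare levels between genes. Allelic counts deposited by the authors were used pooled, because the values of their 54 columns disagreed with the totals of the same name. The design text states 4 replicates and the SPOC groups hold 5.

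Counts were fitted with edgeR 4.0.16 in R 4.3.3 (TMM, filterByExpr leaving 18363 of 53801 genes, robust quasi-likelihood test, 1 term per group, all 27 libraries), with Benjamini-Hochberg adjustment over all genes tested and a threshold of 0.05; SE is the log2 fold change divided by the root of F. The procedure was tested on simulated data. Names and positions come from GENCODE M21, matching 53620 genes. The genes named were the 4, Spen and Xist, list members, genes within 500 kb and the 5 of nearest profile; the promoter search used RefSeq windows, found for Mobp and Sox21. The 4 genes, the lists and the tests were chosen with earlier results of these data known. Labels do not say that libraries of a group were separate cultures beyond calling them biological replicates, so p-values measure the spread between these libraries. Alternatives were DESeq2 1.42.0 (test and size factors), no filter, a fit that is not robust, a replicate block, the compared groups alone, each library left out, wider windows, and, chosen after seeing the data, 2 further omissions of libraries.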

Additional observations from a re-analysis of the deposited data

Results flagged for a closer look

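Sox21 in SPOC untreated replicate 3 had 12.2 CPM, while the other 4 libraries of that group had 7.63 to 8.34 CPM. Its gap to the nearest library was 0.845 of the group's whole range, above the critical value of 0.71 for 5 samples. In all, 24 groups of libraries were examined this way, and chance marks about 1 in 20. Without this library the log2 fold change of Sox21 in SPOC against GFP untreated cells was -0.32, with an edgeR adjusted p of 0.042.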

How the results depend on the processing

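Directions of the 4 genes' called values held under every alternative run. With a replicate block, Mobp (-0.258, adjusted p 0.010) and Sox21 (0.167, 0.047) passed in Dox against untreated GFP cells, and Mobp (0.317, 0.013) in SPOC against GFP untreated cells. The block gave 4145 genes in Dox against untreated SPOC cells (2478 without it), and 294 and 2006 for the differences between lines in the Dox and Dox+Auxin responses (44 and 441 without it). As a hint of pairing from the data, 16 of 27 same-number pairs correlated above 0.1, from -0.116 to 0.462, and 19 were best with their own number. GFP Dox+Auxin against untreated cells was the comparison in which every pair was above 0.1. With only the groups compared, Stc1 (-1.23, 0.0035), Mobp (-0.252, 0.011) and Sox21 (0.171, 0.044) passed in Dox against untreated GFP cells and Mobp (0.277, 0.036) between untreated lines, and the Dox+Auxin difference fell to 211 genes. Not robust, Stc1 passed in GFP cells (-1.24, 0.034). DESeq2 gave 95 and 830 genes for the differences, passed Mobp between untreated lines (0.273, 0.040), and lost Stc1 in SPOC Dox cells (-1.44, 0.059), as did no filter (-1.41, 0.053). The causes were not tested.

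Leaving out each library in turn, Stc1 in Dox against untreated cells ranged from -1.79 to -1.18 (SPOC) and -1.48 to -1.04 (GFP), passing in GFP cells without SPOC Dox replicate 1 or SPOC Dox+Auxin replicates 1, 4 or 5. Mobp between untreated lines ranged from 0.224 to 0.319, passing without SPOC Dox+Auxin replicate 3, and Sox21 from -0.322 to -0.132. Genes called between untreated lines (2122 with all libraries) ranged from 1035 to 2299, with 1406 without SPOC untreated replicate 5, 1076 without GFP untreated replicate 1 and 1035 without GFP untreated replicate 2. Between Dox lines (1962) they ranged from 1260 to 2087, with 1298 and 1260 without GFP Dox replicates 1 and 2. For the Dox+Auxin difference (441) they ranged from 207 to 865. They were 253 without SPOC untreated replicate 4, 278 and 207 without GFP untreated replicates 3 and 4, and 232, 263, 236 and 865 without GFP Dox+Auxin replicates 1 to 4. In windows of 1000 kb, 7 of 16 shares of called neighbours moved by over 1.5 times. Low counts of Stc1 and Sh3rf2 limit their precision.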
